A study of Mus musculus with 8 samples.

Results

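The interferon response genes measured here are 36 mouse genes that type I interferon switches on, and they were chosen by name. A gene was read from the row of the deposited table that carries its symbol alone, and the brightest row stood for a gene with several. In this way 34 of the 36 genes had a row among the 19938 genes of the table, and 32 of these were bright enough to be among the 15174 genes tested. The row of Isg15, a ubiquitin-like protein coupled to other proteins, is shared with the symbol Gm9706 and was not used here, and Ifi44 was not analysed here. Mx1 and Mx2, the dynamin-like GTPases that trap viral nucleocapsids, lay under the brightness limit.

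Full-thickness embryonic skin was taken at E17.5 from mice of a mixed C57BL6/SV129 background, and each RNA went onto 1 array. Embryos labelled PpargΔ/Δ, called Pparg null here, gave 4 arrays, and embryos labelled wildtype for PPARgamma, called control, gave 4. PPARgamma is the nuclear receptor that drives fat cell differentiation, and the question is whether skin without it holds a different level of interferon-induced transcripts. The labels state neither the part of Pparg deleted nor how it was deleted, and give no litter, so p-values measure the spread between these RNAs.

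Cells sense viral or misplaced nucleic acids with RIG-I-like helicases and other sensors and then secrete interferon. Interferon binds its receptor on the same or neighbouring cells, and the receptor's kinases Jak1 and Tyk2 activate transcription factors, Stat2 among them. Stat2 and Irf9 are subunits of a complex called ISGF3, which binds the interferon-stimulated response element (ISRE) in promoters and switches on antiviral genes together. Many cells hold a low level of this program without infection, and in skin keratinocytes, fibroblasts and immune cells can all express it.

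The core of this element was more frequent in the promoters of these genes than in all promoters. The core was taken as GAAA, then any pair of bases (NN), then GAAA again, which reads TTTC, NN, TTTC on the other strand. Both strands were searched, with overlapping matches allowed, in RefSeq windows of GRCm38.p6 that run from 250 bases before to 50 bases after each gene start. A window was at hand for 26 of the 36 genes, and 11 of these (42.3%) held the core, against 3.99% of 27025 genes. They were Ifit1, Ifit3, Isg15, Oas1a, Oas3, Rsad2, Stat2, Ifih1, Ddx58, Bst2 and Eif2ak2. A match is a description of letters and not a measured binding site.

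The 250 bases before the start of 5 genes described below are printed because their ISRE cores lie before the start. They run from 5′ to 3′ on the strand of the gene, with the ISRE core in capitals. The windows are chr19:34640639-34640888 (plus strand) for Ifit1, chr19:34583279-34583528 (plus) for Ifit3, chr12:26456453-26456702 (minus) for Rsad2, chr5:120907526-120907775 (minus) for Oas1a and chr10:128270248-128270497 (plus) for Stat2.
Ifit1: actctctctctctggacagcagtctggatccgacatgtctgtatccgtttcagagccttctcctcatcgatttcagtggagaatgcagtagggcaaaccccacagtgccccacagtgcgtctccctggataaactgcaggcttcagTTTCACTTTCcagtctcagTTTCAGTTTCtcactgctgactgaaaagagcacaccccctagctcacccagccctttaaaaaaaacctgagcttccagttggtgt
Ifit3: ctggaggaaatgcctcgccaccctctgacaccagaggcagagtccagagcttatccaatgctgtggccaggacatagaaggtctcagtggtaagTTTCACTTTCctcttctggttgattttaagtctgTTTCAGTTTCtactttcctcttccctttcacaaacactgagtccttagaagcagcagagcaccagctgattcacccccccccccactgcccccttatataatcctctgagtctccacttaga
Rsad2: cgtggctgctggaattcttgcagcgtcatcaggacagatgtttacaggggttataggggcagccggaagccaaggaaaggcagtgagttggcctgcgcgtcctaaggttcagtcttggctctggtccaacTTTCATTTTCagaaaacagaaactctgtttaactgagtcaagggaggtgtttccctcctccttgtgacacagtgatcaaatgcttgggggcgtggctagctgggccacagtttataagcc
Oas1a: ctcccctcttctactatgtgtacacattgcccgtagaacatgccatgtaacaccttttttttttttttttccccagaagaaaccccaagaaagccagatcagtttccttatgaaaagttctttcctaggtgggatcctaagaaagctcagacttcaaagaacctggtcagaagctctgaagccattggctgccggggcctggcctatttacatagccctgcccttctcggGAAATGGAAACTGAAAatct
Stat2: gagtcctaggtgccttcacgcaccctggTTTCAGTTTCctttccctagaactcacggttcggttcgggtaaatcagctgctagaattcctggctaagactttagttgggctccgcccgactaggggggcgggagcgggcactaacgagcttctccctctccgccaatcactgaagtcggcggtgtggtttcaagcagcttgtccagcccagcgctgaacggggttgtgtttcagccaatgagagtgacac
Ifit1 and Ifit3 each held 2 cores, Oas1a held 2 that overlap just before its start, and Rsad2 and Stat2 held 1 each.

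**Figure D1:**
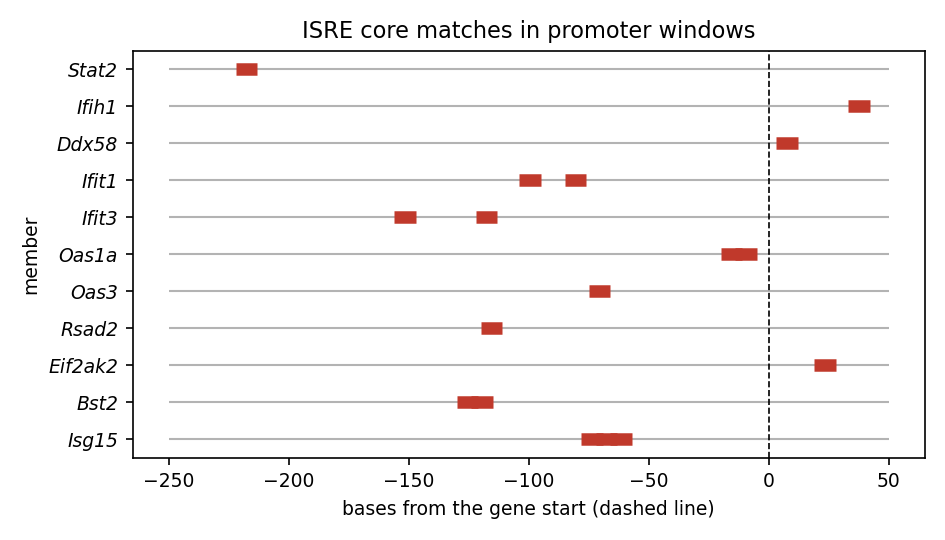
Position of each ISRE core match (red) in the promoter windows (grey lines) of the 11 genes that hold one, in bases from the gene start. Most matches lie before the start, and those of Ifih1, Ddx58 and Eif2ak2 lie after it.

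As a check of the labels, Pparg itself read 9.14, 9.19, 9.19 and 8.98 on the arrays labelled Pparg null and 8.79, 8.88, 9.04 and 9.06 on the control arrays (log2 values, arrays 1 to 4). Pparg null arrays thus did not read lower than control for the targeted gene, and whether its probes lie in the deleted part is not stated. Each direction below is that of the labels. Array 4 of the arrays labelled Pparg null stood apart on the leading principal component (score of -22.8), followed by control array 1 (-9.62), against -0.95 to 8.96 on the rest. Xist, transcribed from the inactive X chromosome of females, was high on Pparg null arrays 3 and 4 (12.17 and 12.10) and control arrays 1 and 4 (12.24 and 12.27), against 4.86 to 5.39 on the other 4 arrays. Suprabasal epidermal markers were bright on all arrays, with a mean log2 level of 11.80 to 12.13 in Pparg null and 11.73 to 11.99 in control skin over 7 of 10 listed genes. The level of 12.13 was that of Pparg null array 4. This array also had the lowest mean level of 7 dermal fibroblast markers, 11.75 against 11.85 to 11.94 on the other arrays. White adipocyte markers differed with genotype: 3 of 4 tested passed in limma, all 4 below control, with a mean level of 8.22 to 8.49 in Pparg null and 9.05 to 9.44 in control skin. The part of these differences in the results below was not tested.

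None of the 32 genes passed in limma. At a limma adjusted p of 0.05, 0 of the 32 were called, against 18 of all 15174 genes (0.119%), and every one of the 32 had an adjusted p of 0.9995. The count over all genes was not stable: it was 3 without Pparg null array 2, 4 without control array 2 or 3, 5 without Pparg null array 1 or control array 4, and 9 without Pparg null array 3, while that of the members stayed at 0. At an unadjusted p of 0.05 there were 2, Ifit3 below control and Isg20 above it, or 6.25% of the 32 against 3.61% of all tested genes. With 1 array left out this count ran from 0 (without control array 3) to 4 (without Pparg null array 2), and it was 1 without Pparg null array 3 or control array 1. With the brightness limit raised to the 50th percentile it was 1 of 20 tested, Isg20, and Ifit3 was no longer tested. No gene had groups that did not overlap. Over all tested genes the Pparg null group lay wholly below control for 1.67% and wholly above for 0.784%.

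The small differences leaned to the same side. Of the 32 genes, 26 lay below control and 6 above, where 50.3% of all tested genes lay below control. The median difference (Pparg null minus control) was -0.08 on the log2 scale over the 32 genes, and -0.08 over the 34 genes with a row. The quartiles were -0.12 and -0.01, against -0.04 and 0.05 over all tested genes, whose median was 0.00. Without Pparg null array 4 the median was -0.05 with 22 of 32 below control, and without both that array and control array 1 it was -0.05 with 25 below. In whole skin, fewer cells of a type and less RNA per cell cannot be told apart.

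**Figure D2:**
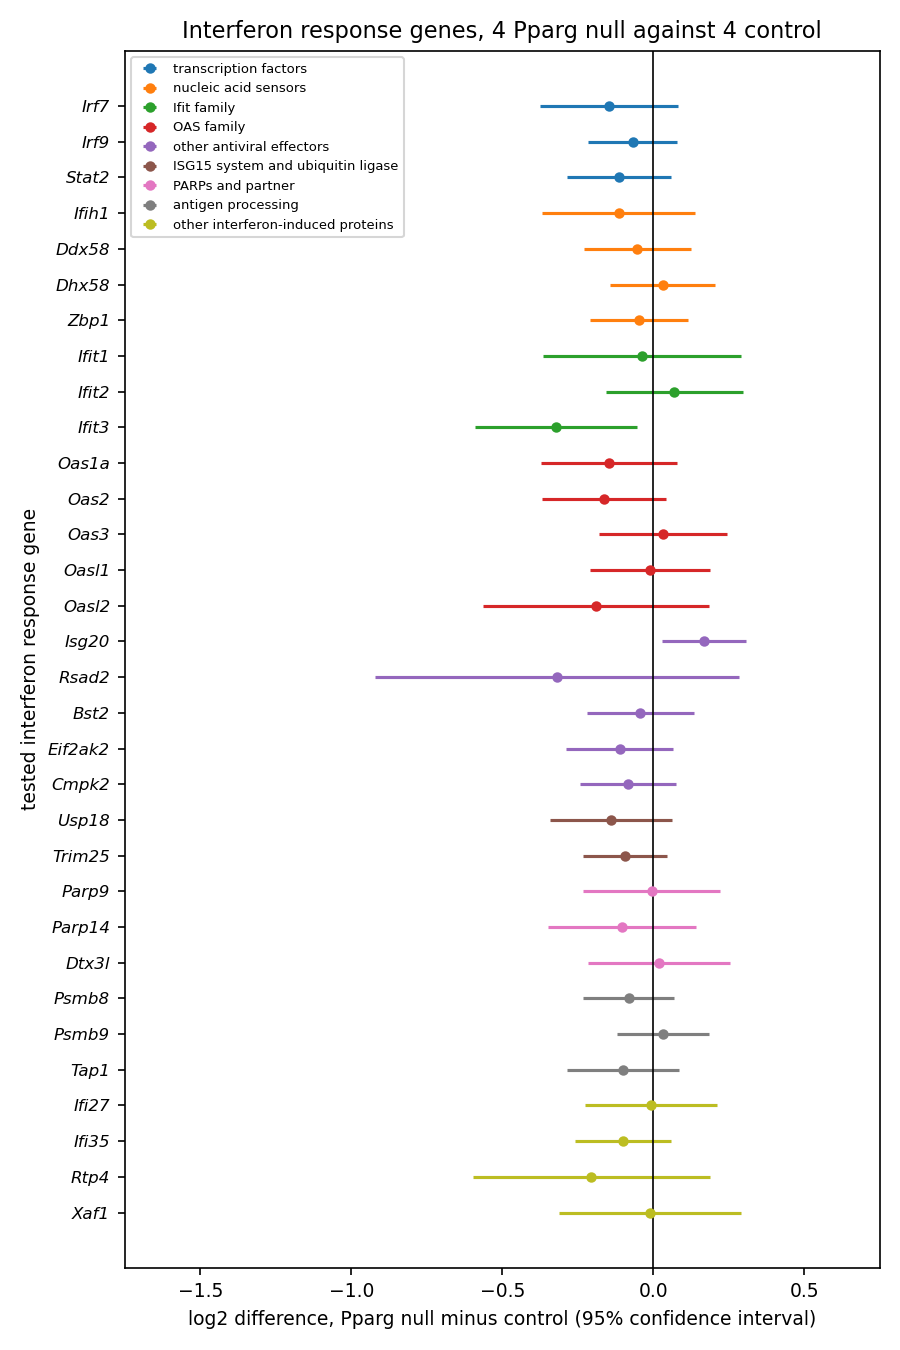
Log2 difference (Pparg null minus control, n = 4 each) of the 32 tested genes with 95% confidence intervals from limma, grouped by role. The intervals of Ifit3 and Isg20 alone exclude 0, before any adjustment.

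The 3 transcription factors among the members all lay slightly below control. Stat2, a subunit of ISGF3, read 7.96, 7.97, 7.72 and 7.78 on Pparg null arrays 1 to 4 and 8.0, 8.11, 7.90 and 7.88 on control arrays 1 to 4. Pparg null arrays 3 and 4 were the lowest of the 8, and the other pair lay inside the control range. The difference was -0.11 (SE 0.08), and -0.07 without Pparg null array 3 or control array 2. Irf9, the DNA-binding subunit of ISGF3, read 7.51, 7.76, 7.66 and 7.55 in Pparg null skin and 7.68, 7.73, 7.60 and 7.75 in control skin, a difference of -0.07 (SE 0.07) with overlapping groups. It was -0.03 without Pparg null array 1, -0.04 without array 4 and -0.12 without array 2. Irf7, which amplifies interferon production, read 6.57, 6.74, 6.53 and 6.36 in Pparg null skin and 6.49, 6.78, 6.62 and 6.90 in control skin. Its difference was -0.15 (SE 0.10), and both the lowest value, on Pparg null array 4, and the highest, on control array 4, came from Xist-high arrays. Without either of these 2 arrays the Irf7 difference was -0.08.

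Among the nucleic acid sensors 3 of 4 lay below control, with a median difference of -0.05. Ifih1 (MDA5), which binds long double-stranded RNA, averaged 6.92 ± 0.19 in Pparg null and 7.03 ± 0.19 in control skin (log2 values, SD, n = 4 each). Ddx58 (RIG-I), which binds RNA with a triphosphate end, averaged 8.13 ± 0.17 in Pparg null and 8.18 ± 0.04 in control skin. For both helicases the difference was smaller than the SD of the Pparg null arrays. Dhx58 (LGP2), which modulates the other helicases, differed by 0.03, and Zbp1, a sensor of Z-form nucleic acids, by -0.05.

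The Ifit genes encode proteins that bind viral RNA, and all 3 lie on chromosome 19. Ifit3 read 6.26, 5.87, 5.73 and 5.99 on Pparg null arrays 1 to 4 and 6.22, 6.08, 6.50 and 6.35 on control arrays 1 to 4. Of the Pparg null arrays 2, 3 and 4 lay below all control arrays and array 1 lay inside their range. The difference was -0.32 (SE 0.12, 95% confidence interval -0.59 to -0.05). Ifit1 read 5.95, 5.88, 5.45 and 5.57 in Pparg null skin and 5.41, 5.68, 5.95 and 5.95 in control skin, a difference of -0.04 (SE 0.15). Its groups covered nearly the same range. The Ifit1 values of 5.41, 5.45 and 5.57 lay under the brightness limit of 5.62 to 5.67, and the lowest Ifit3 value, 5.73, lay just above it. The sign of the Ifit1 difference turned without Pparg null array 3 or 4 or control array 3 or 4. Ifit2 averaged 7.57 ± 0.14 in Pparg null and 7.50 ± 0.19 in control skin (SD, n = 4 each), the one Ifit gene above control.

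OAS enzymes make oligoadenylates that activate RNase L. Of the 5 OAS and OAS-like genes, 4 lay below control, with a median difference of -0.15. Oas2 read 7.08, 7.0, 6.71 and 6.69 in Pparg null skin and 7.06, 6.95, 7.07 and 7.05 in control skin, a difference of -0.16 (SE 0.09). Oasl2, an OAS-like protein, read 7.02, 7.47, 6.62 and 6.61 in Pparg null skin and 7.09, 7.07, 7.17 and 7.15 in control skin, a difference of -0.19 (SE 0.17). In both genes the control arrays lay close together and Pparg null arrays 3 and 4 lay below every other array. The Oasl2 difference was -0.08 without Pparg null array 4, -0.09 without array 3 and -0.37 without array 2, and that of Oas2 was -0.10 without array 4. Oas1a read 6.06, 6.09, 6.25 and 6.21 in Pparg null skin and 6.35, 6.26, 6.55 and 6.04 in control skin, a difference of -0.15 (SE 0.10). In this gene Pparg null arrays 3 and 4 were the higher pair of their group, and the difference was -0.06 without control array 3 and -0.24 without control array 4. Oas3 and Oasl1 differed by 0.03 and -0.01. The Oas1 genes are close copies, and probes of one may read another.

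The other antiviral effectors went both ways. Isg20, an exonuclease that degrades single-stranded RNA, read 7.88, 7.81, 7.71 and 7.78 in Pparg null skin and 7.59, 7.69, 7.51 and 7.72 in control skin. Of the Pparg null arrays, array 3 alone lay inside the control range. The difference was 0.17 (SE 0.06, 95% confidence interval 0.03 to 0.31). Rsad2 (viperin), which makes a chain-terminating nucleotide, read 7.68, 7.54, 6.22 and 7.20 in Pparg null skin and 7.40, 7.35, 7.47 and 7.70 in control skin. It had the largest spread within groups of the 32 genes (SD 0.48). Its difference of -0.32 (SE 0.27) rested on Pparg null array 3, without which it was -0.01; it was -0.49 without Pparg null array 1.

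Cmpk2, a mitochondrial nucleotide kinase on the same chromosome as Rsad2, averaged 6.29 ± 0.12 in Pparg null and 6.37 ± 0.08 in control skin (log2 values, SD, n = 4 each). It did not follow Rsad2 across the arrays (r = -0.29 over 8 arrays, group means removed). Eif2ak2 (PKR), the kinase that halts translation on double-stranded RNA, read 6.67, 6.98, 6.96 and 6.87 in Pparg null skin and 6.93, 6.87, 7.04 and 7.09 in control skin. Its groups overlapped and differed by -0.11 (SE 0.08), and by -0.04 without Pparg null array 1. Bst2 (tetherin), which holds budding virus at the cell surface, differed by -0.04.

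Usp18, which strips ISG15 from proteins and damps the interferon receptor, read 6.37, 6.62, 6.24 and 6.25 in Pparg null skin and 6.50, 6.39, 6.64 and 6.51 in control skin. Pparg null arrays 3 and 4 were again the lowest, and the difference was -0.14 (SE 0.09), or -0.22 without Pparg null array 2. Trim25, the ubiquitin ligase that activates RIG-I, read 8.18, 8.26, 8.18 and 8.03 in Pparg null skin and 8.15, 8.33, 8.28 and 8.26 in control skin, a difference of -0.09 (SE 0.06) with overlapping groups, or -0.05 without Pparg null array 4. Of the ADP-ribosylation proteins, Parp14 differed by -0.10, and Parp9 and its partner Dtx3l by -0.01 and 0.02. Of the antigen-processing genes on chromosome 17, the peptide transporter Tap1 differed by -0.10 and the immunoproteasome subunits Psmb8 and Psmb9 by -0.08 and 0.03.

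Rtp4, a chaperone of G-protein-coupled receptors, read 7.0, 7.26, 6.60 and 6.34 in Pparg null skin and 7.07, 6.89, 7.18 and 6.88 in control skin. Pparg null arrays 3 and 4 lay below all others and array 2 above all others. Its difference of -0.21 (SE 0.17) was -0.05 without Pparg null array 4 and -0.36 without array 2. Ifi35, a partner of the leucine zipper protein Nmi, read 7.39, 7.46, 7.44 and 7.32 in Pparg null skin and 7.47, 7.48, 7.37 and 7.69 in control skin, a difference of -0.10 (SE 0.07), or -0.04 without control array 4. Xaf1, which binds the apoptosis inhibitor XIAP, and Ifi27 both differed by -0.01. The Mx genes, not tested, read 4.60 to 5.05 (Mx1) and 4.55 to 4.81 (Mx2) on the Pparg null arrays and 4.73 to 4.86 and 4.57 to 4.92 on the control arrays, under the brightness limit of 5.62 to 5.67.

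**Figure D3:**
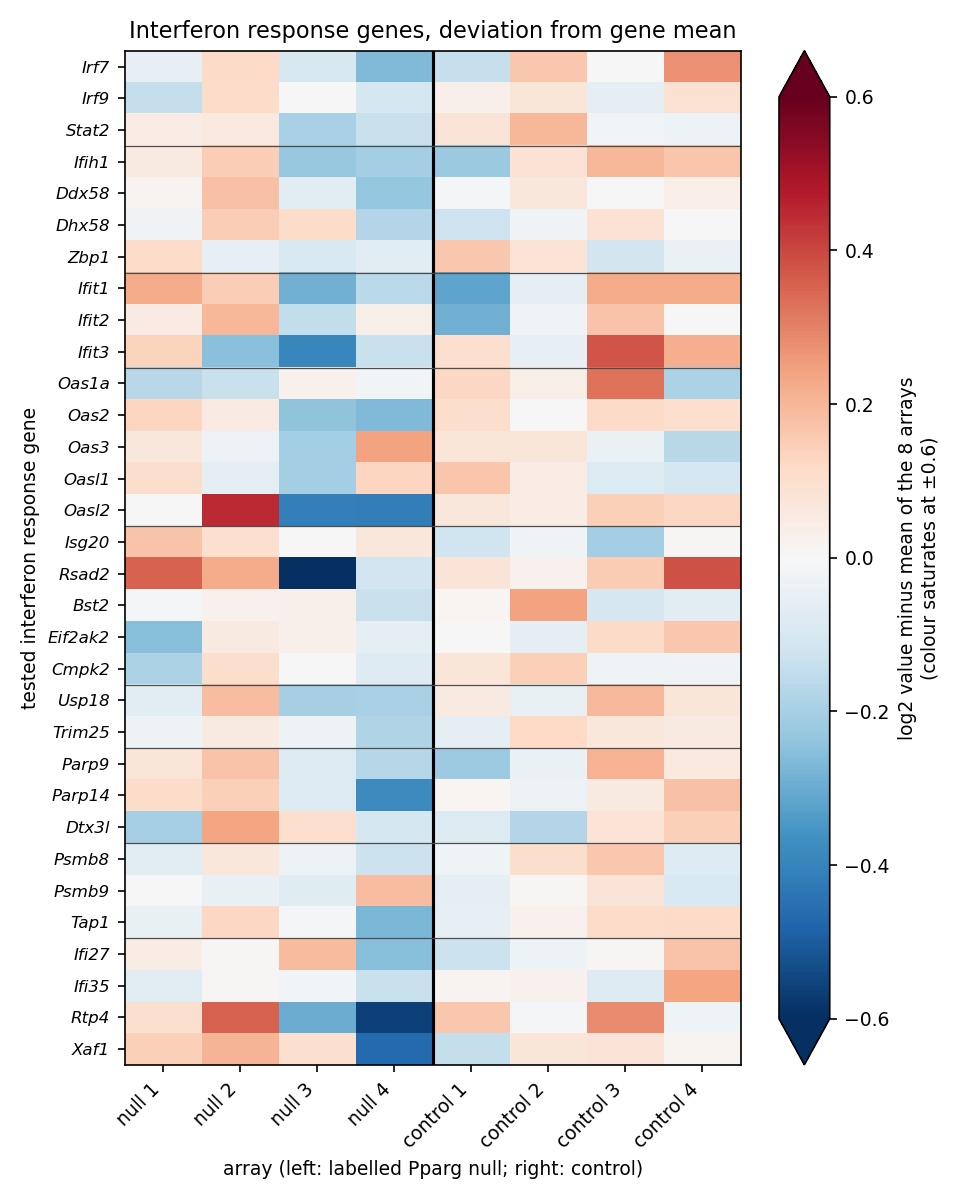
Log2 value of each of the 32 tested genes minus its mean over the 8 arrays, with the 4 Pparg null arrays on the left and the 4 control arrays on the right and lines between roles. Pparg null array 4 is blue for 27 of the 32 genes and array 3 for 24, while array 2 is blue for 6.

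In these genes the Pparg null arrays spread more widely among themselves than the control arrays. The median deviation of the 32 genes from their means over all arrays was 0.03, 0.11, -0.08 and -0.13 on Pparg null arrays 1 to 4 and 0.00, 0.03, 0.08 and 0.06 on control arrays 1 to 4. Over all tested genes the same median stayed between -0.01 and 0.01 on every array. The scaling of the deposited values gives all arrays one distribution, so that median lies near 0 in any case. Whether the wider spread is particular to these genes was not tested. Pparg null array 4 held the lowest value for 14 of the 32 genes and array 2 the highest for 9. By this median the Pparg null group held both ends, and the control arrays lay between them.

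With group means removed, many but not all of the genes varied together. With group means removed, the 496 pairs of tested members had a median Pearson r of 0.27 over the 8 arrays, and 12.1% of pairs exceeded 0.7. Pairs of all tested genes had a median r of 0.01, and 6.51% exceeded 0.7. Of the member pairs 67.9% had r above 0, against 50.7% of all pairs, and the lower quartile of the member pairs was -0.10. The median deviation of the 32 genes from their group means ran from -0.11 to 0.14 on the Pparg null arrays and from -0.04 to 0.04 on the control arrays. All pairs share the same 8 arrays, and the values are descriptive. Without Pparg null array 2 the median r of the members was 0.13, and without Pparg null array 4 and control array 1 it was 0.24.

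**Figure D4:**
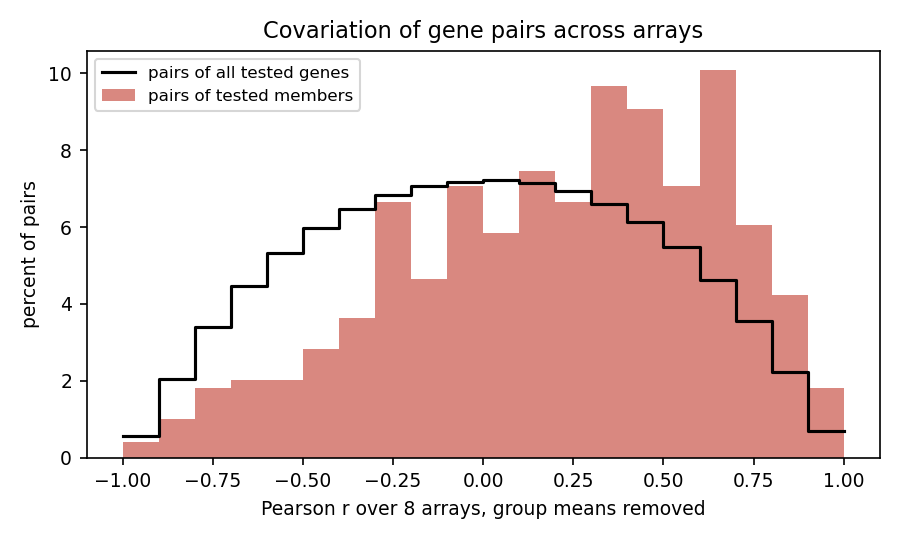
Distribution of Pearson r over 8 arrays, group means removed, for the 496 pairs of tested members (bars) and for pairs of all tested genes (line), in percent of pairs. The bars lie to the right of the line, with a median of 0.27 against 0.01.

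Some members followed the common pattern closely and others did not. Set against the median of the other members, Oasl2 had r = 0.92 (rho = 0.93), Ddx58 0.89 (rho = 0.79), Rtp4 0.88 (rho = 0.83), Parp9 0.83 (rho = 0.90), Parp14 0.83 (rho = 0.83), Ifih1 0.82 (rho = 0.90), Tap1 0.82 (rho = 0.71) and Usp18 0.81 (rho = 0.81). Without the 2 arrays with the most extreme common value, Pparg null arrays 2 and 4, Ifih1 had r = 0.94 and Parp9 0.85, but Rtp4 had 0.47 and Usp18 0.53. Of the rest, Oasl2 then had 0.79, Ddx58 and Parp14 had 0.59 each, and Tap1 had 0.31. Members that ran against the pattern were Psmb9 (r = -0.47), Oas3 (-0.41), Oasl1 (-0.34) and Oas1a (-0.32). Without these 2 arrays Psmb9 had r = 0.48 and Oas3 0.07. Other members turned the other way without them: Cmpk2 had r = -0.86 (0.13 with all 8 arrays), Irf9 -0.73 (0.34) and Eif2ak2 -0.48 (0.07). The 10 tested members with an ISRE core had a median r of 0.30 with the others, the 14 with a window and no core 0.47, and the 8 with no window 0.78.

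Neighbouring genes did not always pair. Ifit1 and Ifit2 had r = 0.84 and Parp9 and Dtx3l 0.49 over the 8 arrays, whereas Oasl1 and Oasl2 had -0.04 and Tap1 and Psmb9 -0.64. In that last pair Pparg null array 4 held both the lowest Tap1 value (7.04) and the highest Psmb9 value (7.62). Oasl2 had r = 0.90 to Rtp4 on chromosome 16 and 0.91 to Usp18 on chromosome 6. Both were picked for this comparison, and both followed the members' common pattern. Oasl2 itself varied mostly among the Pparg null arrays (SD 0.41, against 0.05 among control arrays).

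Among tested genes that are not members, the 5 whose deviations followed the members' median most closely were Slfn5, Gm10024, Slc35a1, Rnf213 and Pcyt1b. They were picked as the highest r over the 8 arrays. Slfn5, a Schlafen protein that interferon induces, had r = 0.99 (rho = 0.99) and read 7.13, 7.32, 6.89 and 6.72 on Pparg null arrays 1 to 4 and 7.34, 7.45, 7.47 and 7.45 on control arrays 1 to 4. All 4 Pparg null arrays lay below all control arrays, with a difference of -0.41 (limma adjusted p = 0.811). Rnf213, a large ubiquitin ligase that interferon also induces, had r = 0.97 (rho = 0.98) and read 8.33, 8.54, 8.20 and 7.92 in Pparg null skin and 8.30, 8.40, 8.46 and 8.42 in control skin. Without Pparg null arrays 2 and 4, r was 0.97 for each of these 2 genes. Slc35a1, the CMP-sialic acid transporter, had r = 0.98 (rho = 0.90), the predicted gene Gm10024 had 0.99 (rho = 0.95), and Pcyt1b, an enzyme of phosphatidylcholine synthesis, had 0.97 (rho = 0.93).

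**Figure D5:**
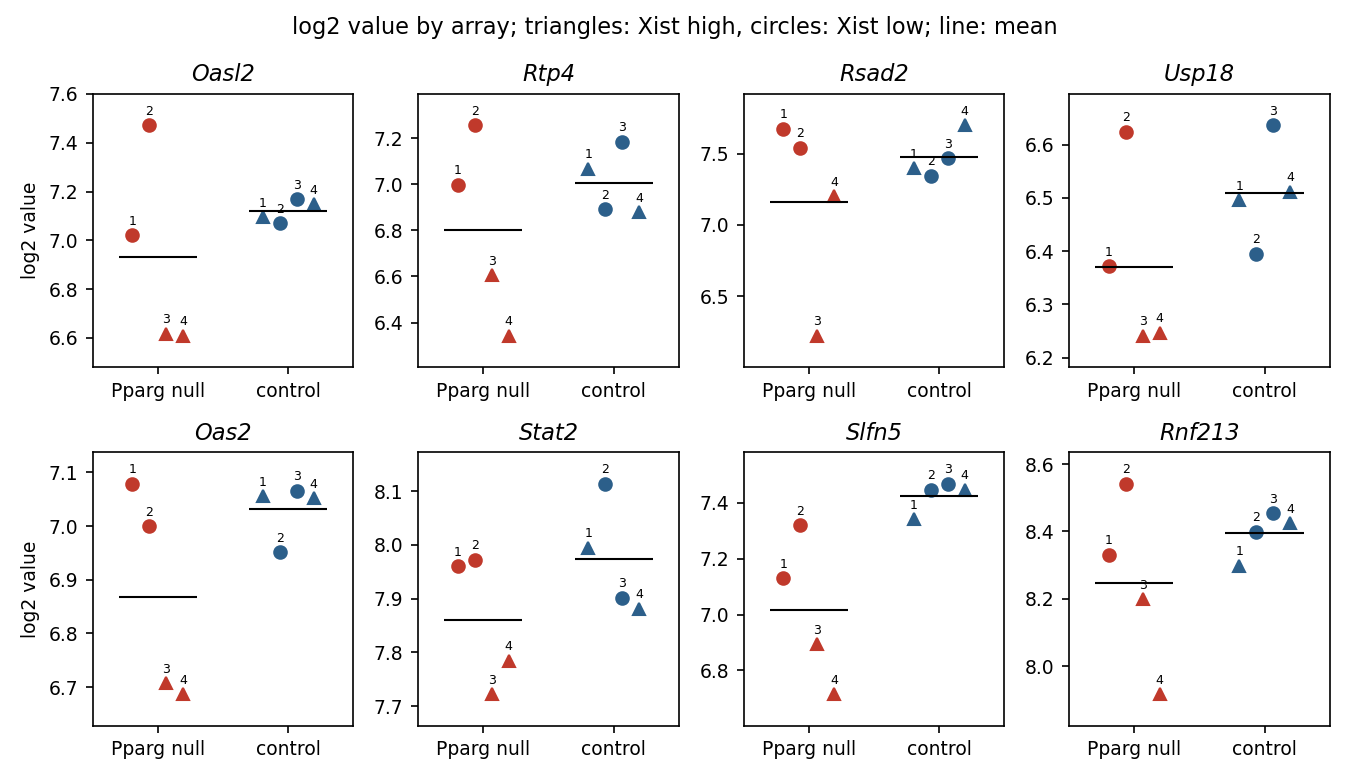
Log2 values of 6 members, Slfn5 and Rnf213 on each array (numbered), with Pparg null (red) left of control (blue), group means as lines, and arrays with high Xist as triangles. In these genes the lowest pair of the Pparg null group is arrays 3 and 4, both Xist high. The members shown were taken from those with this pattern, and Slfn5 and Rnf213 for their high r. The figure thus illustrates the pattern and does not show how common it is.

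The low pair of Pparg null arrays were the 2 of that group with high Xist. Both lay below the other 6 arrays for 8 of the 32 genes (Oas2, Oasl2, Rsad2, Stat2, Usp18, Ddx58, Rtp4 and Parp14), or 25%, against 3.7% of all tested genes. The split by Xist was made after these values were seen. Among the 4 Xist-high arrays 26 of 32 genes lay below control with a median difference of -0.12, and among the 4 Xist-low arrays 15 of 32 did, with a median of 0.02. Over all tested genes 50.8% lay below control among Xist-high arrays and 51.1% among Xist-low arrays. A limma term for the interaction of genotype and Xist class called 0 of the 32 members and 0 of all genes (0%) at an adjusted p of 0.05. At an unadjusted p of 0.05 it took 5 of the 32 (15.6%), namely Oas2, Oasl2, Parp14, Rsad2 and Rtp4, against 1.65% of all tested genes. These 5 are among the 8 genes named above, so this share restates the pattern that prompted the split. With 2 arrays per class and group, sex and single embryos cannot be told apart.

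Upstream of the response, none of the tested ligand or receptor genes passed. Of 21 listed interferon genes 8 were tested. The others, Ifnb1 and Ifnk among them, lay under the brightness limit or had no row used, so they could not be called. Of the 8, 0 passed in limma (1 at an unadjusted p of 0.05), and 7 lay below control. Over all tested genes 50.3% lay below control and 3.61% had an unadjusted p under 0.05. Ifna9 read 5.99, 5.83, 5.86 and 5.95 in Pparg null skin and 6.12, 6.14, 6.07 and 6.15 in control skin, with no overlap (difference of -0.21, limma adjusted p = 0.643), in a family of near-identical genes whose probes may not tell members apart. Of 18 tested receptor and JAK-STAT genes 9 lay below and 9 above control and 0 passed in limma, also 0 at an unadjusted p of 0.05. The type I receptor chain Ifnar1 averaged 9.57 ± 0.05 in Pparg null and 9.58 ± 0.01 in control skin, and Ifnar2 9.48 ± 0.13 and 9.52 ± 0.12 (log2 values, SD, n = 4 each).

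Of 33 tested genes on a list of further interferon-stimulated genes, 21 lay below control, with a median difference of -0.05. Over all tested genes 50.3% lay below. At an unadjusted limma p of 0.05 there were 4 of the 33, against 3.61% of all tested genes. At an adjusted p of 0.05, 1 passed in limma, against 0.119% of all tested genes. That was Lgals3bp, a secreted glycoprotein, which read 7.22, 7.63, 7.14 and 7.14 in Pparg null skin and 7.94, 7.97, 8.03 and 8.15 in control skin. It fell by 0.74 on the log2 scale (limma adjusted p = 0.0463). Over 18 other settings its adjusted p ran from 0.00692 to 0.224, and 6 of them kept the call. Herc6, the ligase that attaches ISG15 in mice, read 5.86, 6.19, 6.16 and 5.78 in Pparg null skin and 6.38, 6.31, 6.44 and 6.36 in control skin, with no overlap (difference of -0.37, adjusted p = 0.659). Over all tested genes the Pparg null group lay wholly below control for 1.67%. Lists of cell types that express interferon-induced genes showed small differences in mean level. Macrophage and Langerhans cell markers had a mean log2 level of 8.28 to 8.47 in Pparg null and 8.35 to 8.44 in control skin, over 9 tested of 10 listed. The level of 8.28 was that of Pparg null array 4. Leukocyte markers had 6.86 to 7.07 in Pparg null and 6.91 to 6.99 in control skin over 6 tested of 12. Of these 6, 5 lay above control and 1, Cd52, below. Cd52 differed by -0.27 and was the 1 gene of the list at an unadjusted limma p of 0.05 (adjusted p = 0.956). Of the plasmacytoid dendritic cell list, cells known for high interferon output, 3 of 7 genes were tested, and 1 lay below and 2 above control. Those 2, Tcf4 and Ly6d, averaged 10.94 and 11.17 in Pparg null and 10.91 and 11.14 in control skin. Which cells of whole skin they read was not tested. The defining marker Siglech, the 1 below, read 5.82 to 6.25 in Pparg null and 5.84 to 6.15 in control skin. These values lie close to the brightness limit of 5.62 to 5.67. The part of these cells in the array pattern was not tested.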

How the data were processed

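RNA of 8 skin samples was hybridised to 1 Affymetrix array each. The deposited log2 values were made by the authors in Affymetrix Expression Console by RMA, as the submitters' processing notes say. RMA gives all arrays one distribution, which hides any change common to all transcripts. No version or filter is given in the sources used here. Groups came from the sample titles.

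Of 35556 transcript clusters, 21789 had 1 symbol in the platform annotation, 1621 had several and 12146 none; symbols were updated by gene ID through a RefSeq table of GRCm38.p6 for 21698. A cluster was tested when 4 or more of the 8 arrays had it above their own 30th percentile. Differences (Pparg null minus control) came from limma 3.58.1 in R 4.3.3 (lmFit, eBayes, two-sided, Benjamini-Hochberg over 15174 genes, threshold 0.05), checked on simulated data. Precision is limited by 4 arrays per group.

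Members and lists were chosen with earlier results of these data known. Values on every array are given for the 10 members with the smallest p, the 4 with the largest SD once group means were removed, and Stat2, Irf9, Irf7 and Usp18. In other lists the genes named come from those past the threshold, the 3 with the smallest p, and Ifnar1, Ifnar2, Ifnb1 and Ifnk for their role. One gene is not reported here. The 5 most similar non-members had the highest r. The deviations of arrays with one number correlated at -0.31, 0.20, 0.05 and -0.03 for numbers 1 to 4, so the numbers were not taken as pairs. Alternatives were other filters, scalings, priors, weights, covariates and left-out arrays.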

Additional observations from a re-analysis of the deposited data

Results flagged for a closer look

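In 2 of 68 groups of 4 values, 1 array lay far from the other 3 of its group, where chance gives about 1 in 20. Xaf1 read 6.23 on Pparg null array 4 and 6.79 to 6.89 on the other Pparg null arrays, a gap of 0.842 of the group's range. For Oas2, control array 2 was at 6.95 while the remaining 3 controls were at 7.05 to 7.07, a gap of 0.883 of the range.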

How the results depend on the processing

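No member was called under any of the 20 other settings, and the median difference stayed below 0 in all 18 that give one. It ran from -0.09 to -0.05 under other filters, scalings, priors, weights, covariates and cluster rules, and from -0.12 to -0.05 with 1 array left out. The number below control was 16 of 20 tested with the filter at the 50th percentile, and 22 to 28 of 32 with 1 array left out. The replicate block left 26 of 32 below control, the median of -0.08 and 0 members called. The median r of member pairs ran from 0.19 (Xist class as covariate) to 0.36, and from 0.13 to 0.33 with 1 array left out. Ifit1, close to 0, changed sign to 0.018 with array weights, and its difference ran from -0.15 to 0.053 with 1 array left out, above 0 without Pparg null array 3 or 4 or control array 3 or 4; the cause was not tested. In the other interferon lists the 1 call, Lgals3bp, became 0 without the brightness filter, with array weights, with the replicate block, with the Xist covariate and without control array 1 and Pparg null array 4 together. With 1 array left out it ran from 0 to 1, and was 1 only without Pparg null array 2. Array weights gave -0.07 for Oasl2, Rtp4 and Usp18 and -0.11 for Oas2. The calls over all genes numbered 1 with the replicate block, 1 when all clusters were tested separately, and 11 with the Xist covariate, against 18. The number of arrays limits precision.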

Other observations

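Genes of MHC class I presentation, many of them also induced by interferon, stayed near control. Of 13 tested genes on that list 6 lay below and 7 above control, the median difference was 0.01, and 0 passed in limma, with 0 at an unadjusted p of 0.05. Psme2, a subunit of the proteasome activator, averaged 10.12 ± 0.07 in Pparg null and 10.03 ± 0.05 in control skin, and H2-Q4, a class I heavy chain, 6.33 ± 0.14 and 6.47 ± 0.14 (log2 values, SD, n = 4 each). Of 16 tested genes of nucleic acid sensing beyond the members 10 lay below and 6 above control, with a median of -0.01 and 0 passing, also 0 at an unadjusted p of 0.05. Mavs, the mitochondrial adaptor of the RIG-I-like helicases, averaged 8.88 ± 0.05 in Pparg null and 8.93 ± 0.06 in control skin, and Tlr9, a sensor of bacterial and viral DNA, 6.84 ± 0.15 and 6.95 ± 0.10.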
